A study of Saccharomyces cerevisiae with 16 samples.

Results

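The genes described here encode nuclear subunits of the respiratory chain and of the ATP synthase of budding yeast, though not every one. COX5A, COX5B and ATP19, for example, are outside the list and are set beside it below. They are 38 genes chosen by symbol: 3 NADH dehydrogenases, 4 genes of complex II, 9 of complex III, 7 of complex IV, 5 of the F1 part of the ATP synthase, 8 of its stalk and membrane part Fo, and 2 inhibitor proteins of the synthase. The choice was a list of symbols and used no measured value as a threshold. All 38 had a probe, among 5311 genes named on the array, and each had 1 probe.

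The respiratory chain passes electrons from NADH and succinate to oxygen across the inner mitochondrial membrane, and complexes III and IV pump protons as they do so. Budding yeast lacks the large proton-pumping complex I and uses single-chain NADH dehydrogenases in its place. The ATP synthase lets the protons flow back through Fo and makes ATP in F1. Yeast growing on glucose ferments and keeps many of these genes low, and they are raised, in part by the HAP activator complex, when glucose runs out or cells are moved to a carbon source that must be respired.

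Gene expression was measured on 16 spotted arrays, 2 for each of 8 strains. Every strain carried an allele of FCP1, the gene of the enzyme that dephosphorylates the tail of the largest subunit of RNA polymerase II, and the labels give each allele a FLAG tag. The allele of the strain fcp1-mut is not described further in the labels. In 4 strains FCP1 was a truncation, named 1:713, 1:666, 1:609 or 1:594, and in 3 more the truncation 1:666, 1:609 or 1:594 was combined with cdk8-del, the deletion of the gene for the kinase of the Mediator complex (CDK8, named SSN3 on the array). No age, treatment or oxidant is named for any culture, and cells were harvested in mid-log growth from a plate reader. A shared reference pool was the second sample on every array. The design text speaks of wild type profiles, but the labels of the pool give no genotype, and they name a different RNA isolation protocol for it than for the strains. The strain was labelled with Cy3 on the array lettered a and with Cy5 on the array lettered b. No label says whether the 2 arrays of a strain had cultures of their own, so p-values below cover the spread between arrays, which may be technical.

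Values are log2 ratios of strain over reference, scaled so that the typical gene on each array lies at 0. Errors are standard errors (SE) of limma over n = 2 arrays per strain. Calls needed a fold above 1.7 and, after Benjamini-Hochberg adjustment over all 6388 gene probes, a p under 0.01. The fold limit is 0.77 on the log2 scale. A second, looser rule was an adjusted p under 0.05 with no minimum fold, and "rose" and "fell" are used of genes that passed at least this one. The arrays' median signals were 292 to 1058 (strains) and 211 to 974 (reference), with median local backgrounds of 41 to 72. All 38 genes were above background on 16 of 16 arrays in both channels, and none had a saturated spot.

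As a check of the labels, the FCP1 probe read -3.49 and -3.19 in 1:609 without and with cdk8-del, -2.77 and -3.43 in 1:594 likewise, and between -0.31 and -0.20 in the other strains. The SSN3 probe was above background on 0 of 6 cdk8-del arrays and read between -0.15 and 0.062 elsewhere. Relative to the pool it was at least 2.37-fold lower in the 1:666, 3.14-fold lower in the 1:609 and 3.53-fold lower in the 1:594 deletion strain, taking the dimmest signal still above background as the limit. Strains also differed in 3 other ways that the labels do not mention. LYS2, a lysine synthesis gene, read 2.73 to 3.40 in the 4 strains with 1:609 or 1:594 and -0.10 to 0.12 in the rest. MET17, a methionine synthesis gene, read -4.91 to -4.51 in 6 strains but -0.060 in 1:666 cdk8-del and -0.44 in 1:594 cdk8-del. The mean of 4 of 4 genes specific to alpha cells (MF(ALPHA)1, MF(ALPHA)2, STE3 and SAG1) lay between -0.096 and 0.054 on the arrays of fcp1-mut and 1:713, between -0.57 and -0.46 in 1:666, between -0.93 and -0.83 in 1:666 cdk8-del, between -2.38 and -2.15 in 1:609 and 1:594, and between -1.72 and -1.52 in these last truncations with cdk8-del.

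With cdk8-del the genes rose together. Averaged over the 3 truncations, 11 of 38 were called higher, where 2.33% of all gene probes were, and 35 of 38 rose at an adjusted p under 0.05, where 14.3% of probes did. The median change was 0.60, against -0.0068 for all probes, and all 38 changes were above 0. INH1, an inhibitor of the ATP synthase, had the largest average change at 1.41 ± 0.067 (adjusted p = 1.25e-07), a 2.66-fold rise, and NDE2, a NADH dehydrogenase, the smallest at 0.14 ± 0.041 (adjusted p = 0.0296). The average change of NDE2 depended on the processing. It was 0.24 with plain background subtraction, 0.22 with each array centred on its median and 0.38 with scaling on external controls. In these 3 settings ATP1, at 0.20, 0.22 and 0.38, had the smallest change of the 38. For 29 of 38 genes every one of the 6 cdk8-del arrays lay above every one of the 6 arrays of the same truncations with CDK8, which held for 7.53% of all probes. In bulk cultures, a change in the share of cells of one kind and a change in RNA per cell cannot be told apart.

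The change was seen in each truncation. In 1:666, 20 genes were called higher and 33 rose at an adjusted p under 0.05, where 3.26% and 9.67% of probes did, and the arrays did not overlap for 38 of 38 genes, against 26.3% of probes. In 1:609, 3 genes were called (QCR10, INH1 and STF1) and 10 rose at an adjusted p under 0.05, against 1.36% and 4.63% of probes, and 34 did not overlap, against 22% of probes. In 1:594, 9 were called and 25 rose at an adjusted p under 0.05, against 1.63% and 5.51% of probes, and 33 did not overlap, against 20.7% of probes. The median changes were 0.80, 0.38 and 0.61 in the same order. No gene fell in any of the 3. These counts of calls depended on the scaling. With each array centred on its median in place of lowess, 3 genes were called in 1:666, 1 in 1:609, 0 in 1:594 and 3 on average by limma, and 7, 1, 2 and 14 rose at an adjusted p under 0.05. In 1:594, 14 had a p under 0.05 before adjustment in that setting. Scaled on the external controls, limma called 0 in each and 0 passed the looser rule, with 2, 0, 0 and 5 at p under 0.05 before adjustment. The median changes under these settings were 0.72, 0.33, 0.55 and 0.53 with median centring and 0.98, 0.63, 0.47 and 0.68 with external controls, where the medians of all probes were 0.24, 0.32, -0.062 and 0.17.

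A replicate block takes out what the arrays of one letter, and so of one dye orientation, share. With it, 33 genes rose in 1:609 at an adjusted p under 0.05, where 16% of probes did, and 14 were called in 1:594, where 2.16% of probes were. On average all 38 rose at an adjusted p under 0.05 with the block, where 55.9% of probes passed in either direction. Unless the block is named, results below are from the fit without it. Single arrays mattered for the counts of calls. Without the b array of 1:594 cdk8-del, 1 gene was called in 1:594 and 5 on average, and without the b array of 1:666 cdk8-del 7 were called on average. Without the a array of 1:594, 2 were called in 1:594. Without the b array of 1:609 or the a array of 1:609 cdk8-del, 1 was called in 1:609. Of the 4 alpha cell genes, 0 were called with cdk8-del in 1:666, 2 were called higher in 1:609 and 1 in 1:594, and MET17 differed by 4.45, 0.27 and 4.10 in that order. The part of mating type genes, of MET17 and of LYS2 in these results was not tested.

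**Figure D1:**
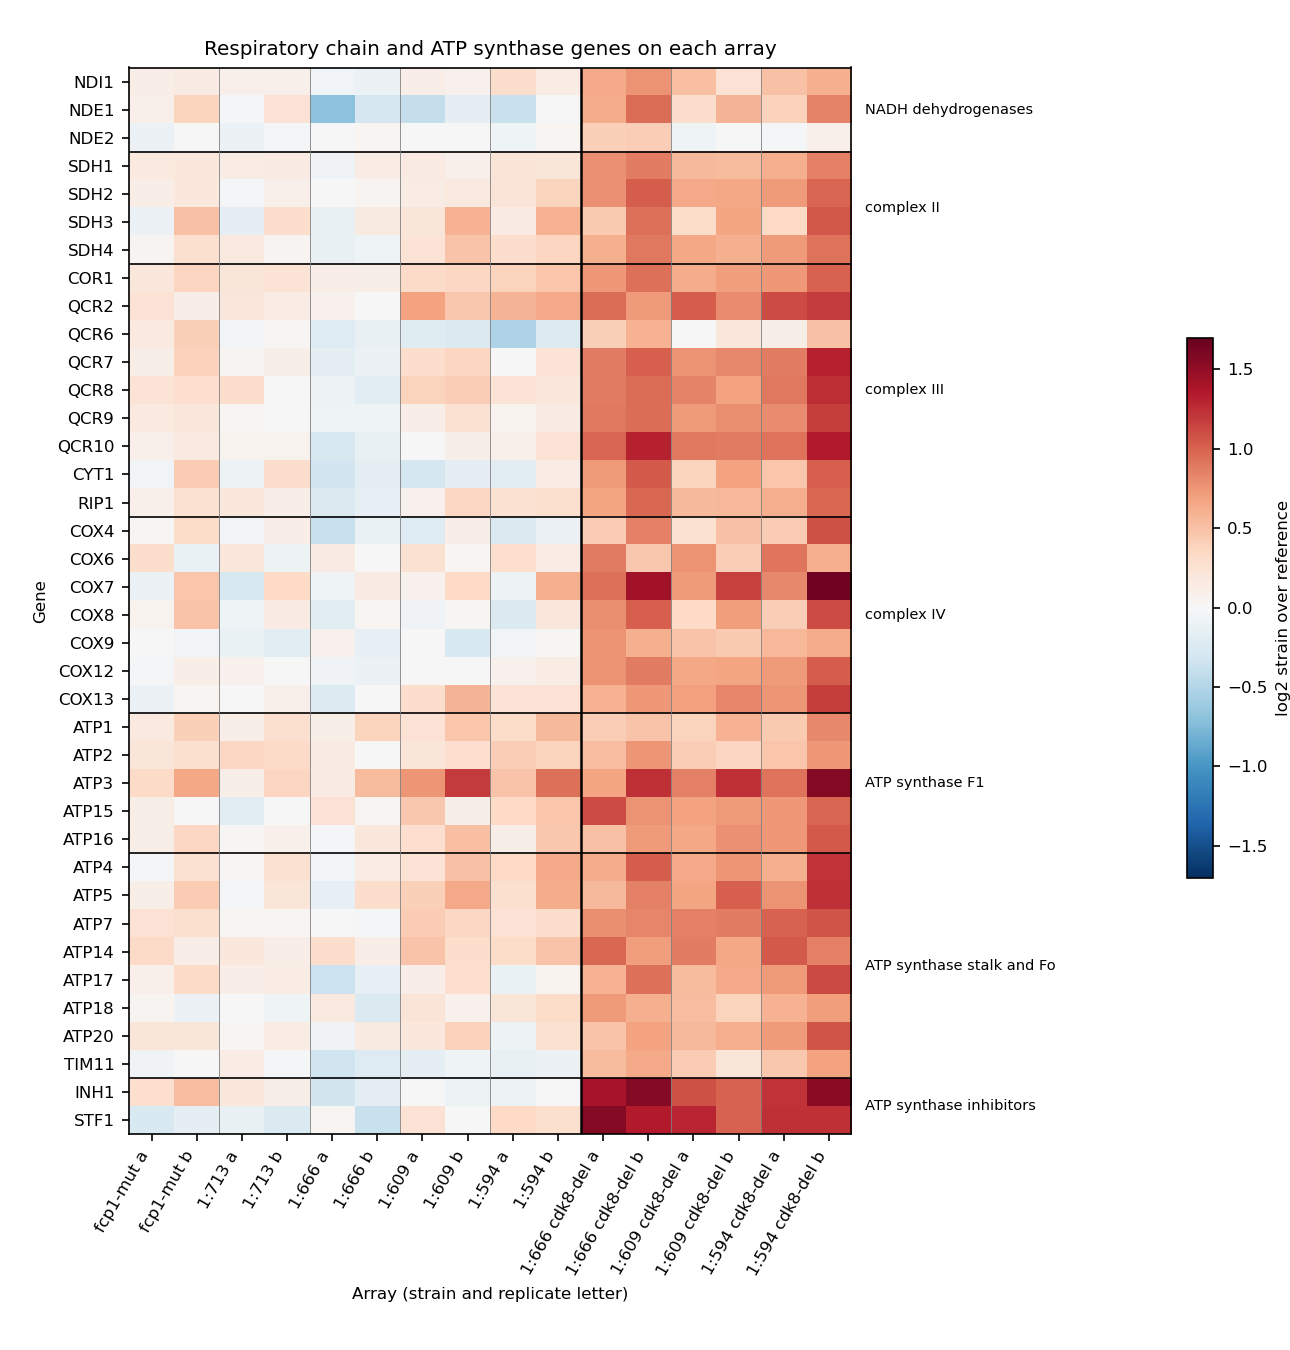
Heat map of the log2 ratio of strain over reference for 38 genes (rows, grouped by complex) on 16 arrays (columns, 2 per strain), with red above and blue below the reference. The 6 cdk8-del columns on the right are red for nearly every gene, with NDE2 as the palest row. The 10 columns on the left are mostly pale, with ATP3 in 1:609 and 1:594 among the exceptions.

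The NADH dehydrogenases had the widest range of average changes, from 0.14 to 0.93. NDI1 (YML120C) faces the matrix and oxidises NADH made there. In the strains with CDK8 it read -0.043 and -0.100 in 1:666, 0.12 and 0.072 in 1:609 and 0.30 and 0.12 in 1:594, where the a array is given first here and below. With cdk8-del it read 0.65 and 0.76 in 1:666, 0.51 and 0.25 in 1:609 and 0.49 and 0.60 in 1:594. The cdk8-del arrays lay above both arrays of the same truncation each time, and the change was 0.78 ± 0.092 (adjusted p = 0.000209) in 1:666, 0.28 ± 0.092 (adjusted p = 0.108) in 1:609 and 0.34 ± 0.092 (adjusted p = 0.0476) in 1:594. It was called in 1:666 and rose in 1:594 by the looser rule. NDE1 (YMR145C) is one of 2 enzymes on the outer face of the membrane that oxidise cytosolic NADH. It stood lowest of all 38 genes in 1:666, and read -0.69 and -0.28 in 1:666, -0.41 and -0.15 in 1:609 and -0.38 and -0.0067 in 1:594 with CDK8. Without CDK8 its values were 0.63 and 0.94 in 1:666, 0.30 and 0.57 in 1:609 and 0.39 and 0.85 in 1:594. It thus went from below the reference on 6 of 6 arrays to above it on 6 of 6. The average change was 0.93 ± 0.12 (adjusted p = 0.000256), called, with 1.27 ± 0.22 in 1:666, 0.72 ± 0.22 in 1:609 and 0.81 ± 0.22 in 1:594, and 1:666 was the truncation in which it was called. NDE2 (YDL085W), the other external enzyme, behaved differently. Its arrays with CDK8 all lay near the reference, at 0.013 and 0.027 in 1:666, -0.00010 and 0.012 in 1:609 and -0.073 and 0.038 in 1:594. With cdk8-del it read 0.40 and 0.42 in 1:666, -0.077 and 0.012 in 1:609 and -0.017 and 0.090 in 1:594, so that it stood apart from the CDK8 arrays in 1:666 and overlapped with them in the other 2 truncations. Its change was 0.39 ± 0.070 (adjusted p = 0.00323) in 1:666, -0.038 ± 0.070 (adjusted p = 0.882) in 1:609 and 0.054 ± 0.070 (adjusted p = 0.788) in 1:594. In fcp1-mut and 1:713 the 4 arrays spanned 0.084 to 0.14 for NDI1, -0.029 to 0.38 for NDE1 and -0.098 to 0.0050 for NDE2.

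Complex II, succinate dehydrogenase, takes electrons from succinate in the citric acid cycle. Of its 4 genes, 3 rose on average and 0 were called on average, with a group median of 0.56. SDH1 (YKL148C) encodes the flavoprotein that binds succinate. It read -0.060 and 0.12 in 1:666, 0.14 and 0.081 in 1:609 and 0.21 and 0.20 in 1:594 with CDK8 and 0.78 and 0.87 in 1:666, 0.55 and 0.54 in 1:609 and 0.61 and 0.86 in 1:594 with cdk8-del, and the arrays of each truncation did not overlap. SDH2 (YLL041C) encodes the iron-sulfur subunit. Its values were -0.0064 and 0.051 in 1:666, 0.13 and 0.17 in 1:609 and 0.21 and 0.37 in 1:594 with CDK8, and 0.78 and 1.03 in 1:666, 0.65 and 0.65 in 1:609 and 0.72 and 0.99 in 1:594 without it, again with no overlap. The 2 changes were close in size, with averages of 0.58 ± 0.051 (adjusted p = 1.08e-05) for SDH1 and 0.65 ± 0.062 (adjusted p = 2.20e-05) for SDH2, and both genes were called in 1:666 and rose in the other truncations. SDH3 (YKL141W) and SDH4 (YDR178W) encode the membrane anchors. SDH4 read -0.13 and -0.070 in 1:666, 0.24 and 0.49 in 1:609 and 0.30 and 0.37 in 1:594 before and 0.61 and 0.90 in 1:666, 0.66 and 0.61 in 1:609 and 0.72 and 0.92 in 1:594 after loss of CDK8. Its groups did not overlap, and it was called in 1:666 at 0.85 ± 0.12 (adjusted p = 0.000842), with an average of 0.54 ± 0.072 (adjusted p = 0.000263). SDH3 had the widest gap between its a and b arrays in the group, with a median of 0.46. Its b array lay above its a array in 8 of 8 strains, and it read -0.12 and 0.15 in 1:666, 0.21 and 0.59 in 1:609 and 0.14 and 0.60 in 1:594 with CDK8 and 0.44 and 0.93 in 1:666, 0.31 and 0.67 in 1:609 and 0.34 and 1.06 in 1:594 with cdk8-del. The arrays overlapped in 1:609 and 1:594, and its average change of 0.36 ± 0.18 (adjusted p = 0.162) did not pass either rule. The arrays of fcp1-mut and 1:713 spanned 0.12 to 0.18 for SDH1, -0.032 to 0.18 for SDH2, -0.16 to 0.50 for SDH3 and 0.041 to 0.28 for SDH4.

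Complex III, the cytochrome bc1 complex, passes electrons from ubiquinol to cytochrome c. All 9 of its genes rose on average and 4 were called, with a group median of 0.76. In 1:666, 7 of the 9 were called, in 1:609 1 and in 1:594 4. The core proteins of the complex, COR1 (YBL045C) and QCR2 (YPR191W), face the matrix. COR1 read 0.11 and 0.11 in 1:666, 0.32 and 0.36 in 1:609 and 0.38 and 0.47 in 1:594 with CDK8 and 0.74 and 0.94 in 1:666, 0.64 and 0.71 in 1:609 and 0.74 and 1.01 in 1:594 with cdk8-del. QCR2 already lay above the reference in 1:609 and 1:594, at 0.072 and 0.0081 in 1:666, 0.68 and 0.45 in 1:609 and 0.57 and 0.65 in 1:594. Its cdk8-del arrays, at 0.95 and 0.72 in 1:666, 1.03 and 0.81 in 1:609 and 1.11 and 1.19 in 1:594, were higher again and did not overlap with those of the same truncation. The average changes were 0.50 ± 0.058 (adjusted p = 9.53e-05) for COR1 and 0.56 ± 0.063 (adjusted p = 7.59e-05) for QCR2, which was also called in 1:666 at 0.80 ± 0.11 (adjusted p = 0.000547).

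The small subunits of complex III came next. QCR7 (YDR529C) and QCR8 (YJL166W) bind near the mitochondrially encoded cytochrome b. QCR7 read -0.17 and -0.099 in 1:666, 0.30 and 0.37 in 1:609 and 0.0046 and 0.23 in 1:594 with CDK8 and 0.86 and 1.01 in 1:666, 0.77 and 0.82 in 1:609 and 0.87 and 1.30 in 1:594 without it. QCR8 followed closely, at -0.083 and -0.18 in 1:666, 0.37 and 0.42 in 1:609 and 0.24 and 0.18 in 1:594 with CDK8 and 0.88 and 0.95 in 1:666, 0.85 and 0.69 in 1:609 and 0.89 and 1.25 in 1:594 with cdk8-del. Neither gene's arrays overlapped in any truncation, and both were called in 1:666 and in 1:594. QCR9 (YGR183C) and QCR10 (YHR001W-A) are the smallest subunits and sit in the membrane. QCR9 read -0.079 and -0.074 in 1:666, 0.12 and 0.26 in 1:609 and 0.054 and 0.15 in 1:594 with CDK8 and 0.89 and 0.95 in 1:666, 0.72 and 0.78 in 1:609 and 0.80 and 1.17 in 1:594 with cdk8-del. QCR10 went from -0.27 and -0.13 in 1:666, 0.0067 and 0.097 in 1:609 and 0.080 and 0.23 in 1:594 to 0.99 and 1.31 in 1:666, 0.89 and 0.88 in 1:609 and 0.92 and 1.34 in 1:594. Its lowest cdk8-del array was far above its highest CDK8 array, and it was one of 3 genes called in all 3 truncations, with 1.35 ± 0.14 (adjusted p = 6.50e-05) in 1:666, 0.83 ± 0.14 (adjusted p = 0.00371) in 1:609 and 0.97 ± 0.14 (adjusted p = 0.00125) in 1:594. The averages were 0.83 ± 0.082 (adjusted p = 2.79e-05) for QCR7, 0.76 ± 0.071 (adjusted p = 1.93e-05) for QCR8, 0.82 ± 0.060 (adjusted p = 3.26e-06) for QCR9 and 1.05 ± 0.078 (adjusted p = 3.34e-06) for QCR10, and QCR8 alone of these was not called on average, its fold being 1.69.

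The redox subunits of complex III are cytochrome c1 and the Rieske protein. CYT1 (YOR065W), cytochrome c1, read -0.32 and -0.15 in 1:666, -0.30 and -0.16 in 1:609 and -0.20 and 0.13 in 1:594 with CDK8. With cdk8-del it read 0.72 and 1.04 in 1:666, 0.38 and 0.68 in 1:609 and 0.48 and 1.01 in 1:594, and the groups did not overlap although its b array lay above its a array in 8 of 8 strains. CYT1 was called in 1:666, at 1.12 ± 0.23 (adjusted p = 0.00617), and its called average was 0.89 ± 0.13 (adjusted p = 0.000501). RIP1 (YEL024W), the Rieske iron-sulfur protein, read -0.24 and -0.15 in 1:666, 0.068 and 0.35 in 1:609 and 0.26 and 0.27 in 1:594 with CDK8 and 0.66 and 0.98 in 1:666, 0.55 and 0.56 in 1:609 and 0.62 and 0.98 in 1:594 without it. It was called in 1:666 at 1.02 ± 0.14 (adjusted p = 0.000518) and averaged 0.63 ± 0.079 (adjusted p = 0.000168). QCR6 (YFR033C), an acidic subunit near the cytochrome c1 site, was lowest of the 38 in 1:594 and read -0.22 and -0.12 in 1:666, -0.20 and -0.24 in 1:609 and -0.52 and -0.24 in 1:594 with CDK8. Its cdk8-del arrays were 0.41 and 0.59 in 1:666, -0.011 and 0.19 in 1:609 and 0.098 and 0.50 in 1:594, above those of the same truncation but close to the reference in 1:609. It rose on average by 0.55 ± 0.084 (adjusted p = 0.000615) without being called in any truncation. In fcp1-mut and 1:713 the 4 arrays spanned 0.19 to 0.36 for COR1, 0.11 to 0.25 for QCR2, -0.040 to 0.41 for QCR6, 0.049 to 0.39 for QCR7 and 0.0037 to 0.30 for QCR8. They spanned -0.012 to 0.20 for QCR9, 0.053 to 0.16 for QCR10, -0.092 to 0.43 for CYT1 and 0.092 to 0.26 for RIP1.

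**Figure D2:**
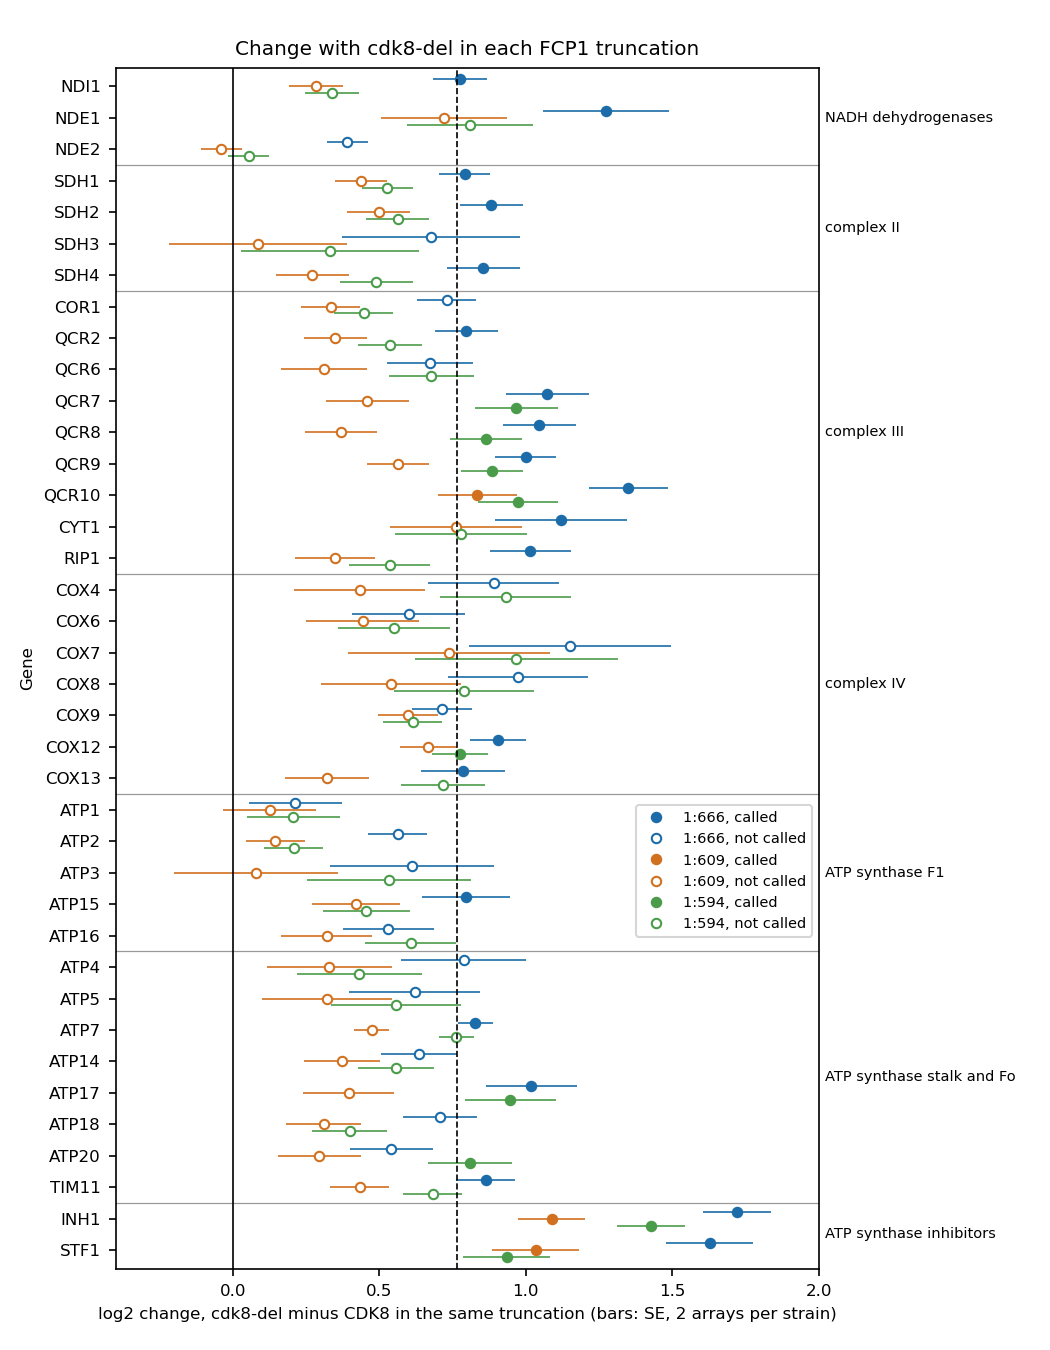
Change in log2 ratio with cdk8-del for each of the 38 genes in the truncations 1:666 (blue), 1:609 (orange) and 1:594 (green), with bars for 1 SE; filled points were called, and the dashed line marks 0.77, the fold limit of 1.7. The blue point lies farthest right for most genes, and INH1 and STF1 lie farthest right of all in 1:666.

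Complex IV, cytochrome c oxidase, passes electrons from cytochrome c to oxygen. All 7 of its genes rose on average, 3 were called, and the group median was 0.75. COX7 (YMR256C) and COX8 (YLR395C) encode small membrane subunits. COX7 had the largest change of the group and also the widest spread between dyes: it read -0.069 and 0.14 in 1:666, 0.069 and 0.34 in 1:609 and -0.087 and 0.62 in 1:594 with CDK8 and 0.94 and 1.43 in 1:666, 0.72 and 1.16 in 1:609 and 0.81 and 1.65 in 1:594 with cdk8-del. The groups did not overlap within any truncation, and the change was 1.15 ± 0.34 (adjusted p = 0.046) in 1:666, 0.74 ± 0.34 (adjusted p = 0.284) in 1:609 and 0.97 ± 0.34 (adjusted p = 0.121) in 1:594. COX8 read -0.19 and 0.040 in 1:666, -0.061 and 0.026 in 1:609 and -0.24 and 0.19 in 1:594 and 0.79 and 1.01 in 1:666, 0.34 and 0.71 in 1:609 and 0.42 and 1.11 in 1:594 in the same 2 conditions, with no overlap. On average COX7 changed by 0.95 ± 0.20 (adjusted p = 0.00471) and COX8 by 0.77 ± 0.14 (adjusted p = 0.0019), and both were called on average but in no single truncation. COX12 (YLR038C) lies on the intermembrane side. It read -0.058 and -0.10 in 1:666, 0.00010 and -0.0033 in 1:609 and 0.074 and 0.13 in 1:594 with CDK8 and 0.76 and 0.89 in 1:666, 0.66 and 0.67 in 1:609 and 0.72 and 1.03 in 1:594 without it. Its groups were far apart, and it was called in 1:666, in 1:594 and on average, at 0.78 ± 0.055 (adjusted p = 2.31e-06).

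Other subunits of complex IV rose less or less evenly. COX4 (YGL187C), a zinc-binding subunit on the matrix side, read -0.38 and -0.11 in 1:666, -0.22 and 0.12 in 1:609 and -0.25 and -0.098 in 1:594 with CDK8 and 0.44 and 0.86 in 1:666, 0.26 and 0.49 in 1:609 and 0.43 and 1.09 in 1:594 with cdk8-del. It did not overlap in any truncation, and averaged 0.75 ± 0.13 (adjusted p = 0.0014). COX6 (YHR051W), also on the matrix side, was the 1 gene of the 38 whose a array was the higher one in 8 of 8 strains. It read 0.14 and 0.0028 in 1:666, 0.26 and 0.035 in 1:609 and 0.29 and 0.13 in 1:594 with CDK8 and 0.88 and 0.46 in 1:666, 0.76 and 0.42 in 1:609 and 0.91 and 0.61 in 1:594 with cdk8-del. The average was 0.53 ± 0.11 (adjusted p = 0.00465 in limma), and no single truncation passed without a replicate block. With the block it rose in 1:666 by the looser rule. COX9 (YDL067C) and COX13 (YGL191W) span the membrane. COX9 read 0.073 and -0.13 in 1:666, 0.0084 and -0.26 in 1:609 and -0.048 and 0.021 in 1:594 with CDK8 and 0.76 and 0.60 in 1:666, 0.49 and 0.45 in 1:609 and 0.56 and 0.64 in 1:594 without it, and changed by 0.71 ± 0.10 in 1:666, 0.60 ± 0.10 in 1:609 and 0.61 ± 0.10 in 1:594. COX13 read -0.23 and -0.011 in 1:666, 0.30 and 0.58 in 1:609 and 0.24 and 0.25 in 1:594 with CDK8 and 0.59 and 0.74 in 1:666, 0.70 and 0.83 in 1:609 and 0.75 and 1.17 in 1:594 with cdk8-del. It was called in 1:666 at 0.79 ± 0.14 (adjusted p = 0.00347), and the averages were 0.64 ± 0.059 (adjusted p = 1.66e-05) for COX9 and 0.61 ± 0.083 (adjusted p = 0.000289) for COX13. The 4 arrays of fcp1-mut and 1:713 spanned -0.051 to 0.31 for COX4, -0.11 to 0.29 for COX6, -0.27 to 0.48 for COX7 and -0.071 to 0.48 for COX8. They spanned -0.19 to 0.012 for COX9, -0.015 to 0.12 for COX12 and -0.096 to 0.089 for COX13.

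The F1 part of the ATP synthase holds the catalytic sites and the rotating shaft, and its median average change was the smallest of the 7 groups. In 1:594 the NADH dehydrogenases had a smaller median, at 0.34 against 0.46. Of the 5 genes 3 rose on average, 0 were called on average, and the median was 0.41. ATP1 (YBL099W) encodes the alpha subunit. It read 0.094 and 0.38 in 1:666, 0.25 and 0.47 in 1:609 and 0.31 and 0.55 in 1:594 with CDK8 and 0.41 and 0.49 in 1:666, 0.38 and 0.60 in 1:609 and 0.45 and 0.82 in 1:594 with cdk8-del, and the arrays overlapped in 1:609 and 1:594. Its average change of 0.18 ± 0.091 (adjusted p = 0.18 in limma) passed neither rule without a replicate block, and with the block it passed the looser one. ATP2 (YJR121W), the catalytic beta subunit, read 0.14 and 0.0033 in 1:666, 0.21 and 0.29 in 1:609 and 0.42 and 0.38 in 1:594 with CDK8. With cdk8-del it read 0.52 and 0.75 in 1:666, 0.42 and 0.37 in 1:609 and 0.47 and 0.74 in 1:594, each pair above its counterpart. It rose in 1:666 at 0.56 ± 0.10 (adjusted p = 0.0032) and did not pass in the other truncations, and averaged 0.31 ± 0.058 (adjusted p = 0.0027). ATP3 (YBR039W), the gamma subunit that forms the shaft, was above the reference on 16 of 16 arrays. It read 0.14 and 0.54 in 1:666, 0.75 and 1.19 in 1:609 and 0.49 and 0.94 in 1:594 with CDK8 and 0.67 and 1.24 in 1:666, 0.86 and 1.24 in 1:609 and 0.93 and 1.56 in 1:594 with cdk8-del, and its b array was the higher one in 8 of 8 strains. The groups overlapped in 1:609 and 1:594, and the average of 0.41 ± 0.16 (adjusted p = 0.0893) did not pass.

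ATP15 (YPL271W) and ATP16 (YDL004W) encode the epsilon and delta subunits at the foot of the shaft. ATP15 read 0.25 and 0.028 in 1:666, 0.46 and 0.097 in 1:609 and 0.34 and 0.47 in 1:594 with CDK8 and 1.11 and 0.76 in 1:666, 0.68 and 0.72 in 1:609 and 0.74 and 0.98 in 1:594 with cdk8-del. It was called in 1:666 at 0.80 ± 0.15 (adjusted p = 0.00433), and its groups did not overlap in any truncation. ATP16 read -0.039 and 0.19 in 1:666, 0.29 and 0.51 in 1:609 and 0.10 and 0.46 in 1:594 with CDK8 and 0.50 and 0.72 in 1:666, 0.65 and 0.78 in 1:609 and 0.74 and 1.04 in 1:594 without it, also with no overlap within a truncation. The average changes were 0.56 ± 0.087 (adjusted p = 0.000721) for ATP15 and 0.49 ± 0.089 (adjusted p = 0.00218) for ATP16. Across fcp1-mut and 1:713 the arrays spanned 0.098 to 0.40 for ATP1, 0.20 to 0.35 for ATP2, 0.10 to 0.65 for ATP3, -0.18 to 0.094 for ATP15 and 0.026 to 0.35 for ATP16.

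The stalk and membrane genes of the ATP synthase lay between these extremes, with all 8 rising on average, 1 called on average and a median of 0.54. The outer stalk holds F1 still while the shaft turns, and ATP4 (YPL078C) (subunit b), ATP5 (YDR298C) (the subunit that confers oligomycin sensitivity), ATP7 (YKL016C) (subunit d) and ATP14 (YLR295C) (subunit h) belong to it. ATP7 had the smallest error of the 38. It read -0.0033 and -0.031 in 1:666, 0.43 and 0.35 in 1:609 and 0.25 and 0.30 in 1:594 with CDK8 and 0.79 and 0.84 in 1:666, 0.85 and 0.87 in 1:609 and 1.003 and 1.07 in 1:594 with cdk8-del, so that the arrays of each strain lay close to each other and the groups far apart. Its change was 0.83 ± 0.059 (adjusted p = 5.59e-06) in 1:666, 0.47 ± 0.059 (adjusted p = 0.000775) in 1:609 and 0.76 ± 0.059 (adjusted p = 3.00e-05) in 1:594, and the average 0.69 ± 0.034 (adjusted p = 1.62e-07), below the fold limit. ATP4 read -0.045 and 0.13 in 1:666, 0.23 and 0.50 in 1:609 and 0.33 and 0.64 in 1:594 with CDK8 and 0.63 and 1.03 in 1:666, 0.65 and 0.75 in 1:609 and 0.61 and 1.23 in 1:594 with cdk8-del, and overlapped in 1:594. ATP5 read -0.13 and 0.30 in 1:666, 0.41 and 0.64 in 1:609 and 0.27 and 0.63 in 1:594 with CDK8 and 0.55 and 0.86 in 1:666, 0.67 and 1.02 in 1:609 and 0.76 and 1.24 in 1:594 without it. Both had the b array as the higher one in 8 of 8 strains, and averaged 0.52 ± 0.12 (adjusted p = 0.00979) and 0.50 ± 0.13 (adjusted p = 0.0146). ATP14, for which the a array was mostly the higher one, read 0.30 and 0.11 in 1:666, 0.48 and 0.30 in 1:609 and 0.31 and 0.48 in 1:594 with CDK8 and 0.98 and 0.71 in 1:666, 0.87 and 0.66 in 1:609 and 1.04 and 0.86 in 1:594 with cdk8-del. It did not overlap in any truncation and averaged 0.52 ± 0.074 (adjusted p = 0.000396).

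ATP17 (YDR377W) (subunit f) and ATP18 (YML081C-A) (subunit i) are small membrane subunits. ATP17 went from -0.37 and -0.13 in 1:666, 0.11 and 0.28 in 1:609 and -0.11 and 0.054 in 1:594 to 0.60 and 0.93 in 1:666, 0.53 and 0.65 in 1:609 and 0.72 and 1.12 in 1:594. It stood below the reference in 1:666 and well above it after loss of CDK8, and was called in 1:666, in 1:594 and on average, at 0.79 ± 0.090 (adjusted p = 8.66e-05). ATP18 read 0.17 and -0.25 in 1:666, 0.22 and 0.069 in 1:609 and 0.20 and 0.31 in 1:594 with CDK8 and 0.73 and 0.61 in 1:666, 0.53 and 0.38 in 1:609 and 0.60 and 0.71 in 1:594 with cdk8-del, with an average of 0.47 ± 0.073 (adjusted p = 0.00073). ATP20 (YPR020W) (subunit g) and TIM11 (YDR322C-A) (subunit e) are known for joining 2 synthases into a dimer. ATP20 read -0.056 and 0.15 in 1:666, 0.18 and 0.39 in 1:609 and -0.088 and 0.26 in 1:594 with CDK8 and 0.49 and 0.69 in 1:666, 0.55 and 0.61 in 1:609 and 0.73 and 1.07 in 1:594 without it. It was called in 1:594 at 0.81 ± 0.14 (adjusted p = 0.00514 in limma) and not in 1:666, whereas TIM11 was called in 1:666 and not in 1:594. For neither gene did the difference between these truncations pass a rule, with or without a replicate block. TIM11 was below the reference on 6 of 6 arrays with CDK8, at -0.33 and -0.22 in 1:666, -0.15 and -0.072 in 1:609 and -0.13 and -0.10 in 1:594, and above it on 6 of 6 with cdk8-del, at 0.53 and 0.64 in 1:666, 0.43 and 0.21 in 1:609 and 0.46 and 0.68 in 1:594. It was called in 1:666 at 0.86 ± 0.10 (adjusted p = 0.00019) and rose in 1:609 and 1:594. The averages were 0.55 ± 0.082 (adjusted p = 0.000576) for ATP20 and 0.66 ± 0.058 (adjusted p = 1.23e-05) for TIM11. In fcp1-mut and 1:713 the arrays spanned -0.034 to 0.26 for ATP4, -0.032 to 0.43 for ATP5, 0.017 to 0.27 for ATP7 and 0.12 to 0.32 for ATP14. They spanned 0.089 to 0.33 for ATP17, -0.11 to 0.048 for ATP18, 0.038 to 0.21 for ATP20 and -0.062 to 0.13 for TIM11.

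The 2 inhibitors changed most on average, in 1:666 and in 1:609. In 1:594 INH1 changed most, but STF1 lay below QCR10 at 0.97, COX7 at 0.97 and ATP17 at 0.95. INH1 (YDL181W) encodes the protein that binds F1 and keeps it from hydrolysing ATP when the proton gradient falls, and STF1 (YDL130W-A) encodes a related small protein that acts on F1 as well. INH1 read -0.31 and -0.16 in 1:666, -0.0053 and -0.081 in 1:609 and -0.085 and -0.0016 in 1:594 with CDK8. With cdk8-del it read 1.40 and 1.56 in 1:666, 1.08 and 1.01 in 1:609 and 1.23 and 1.53 in 1:594. All 6 of the former lay below 0 and all 6 of the latter above 1, and the change was 1.72 ± 0.12 (adjusted p = 3.91e-06) in 1:666, 1.09 ± 0.12 (adjusted p = 0.000259) in 1:609 and 1.43 ± 0.12 (adjusted p = 3.90e-05) in 1:594. STF1 read 0.036 and -0.38 in 1:666, 0.25 and -0.011 in 1:609 and 0.35 and 0.27 in 1:594 with CDK8 and 1.56 and 1.34 in 1:666, 1.30 and 1.01 in 1:609 and 1.25 and 1.24 in 1:594 with cdk8-del. It did not overlap in any truncation, and changed by 1.63 ± 0.15 (adjusted p = 3.29e-05) in 1:666, 1.03 ± 0.15 (adjusted p = 0.0018) in 1:609 and 0.94 ± 0.15 (adjusted p = 0.00283) in 1:594. Both were called in all 3 truncations, which among the 38 was otherwise true of QCR10 alone. By size of the average change among 6388 probes, with the largest rise ranked first, INH1 ranked 49, STF1 67 and QCR10 90, whereas ATP1 ranked 1073 and NDE2 1377. The 4 arrays of fcp1-mut and 1:713 spanned 0.096 to 0.53 for INH1 and -0.26 to -0.12 for STF1, so that STF1 was below and INH1 above the reference there.

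**Figure D3:**
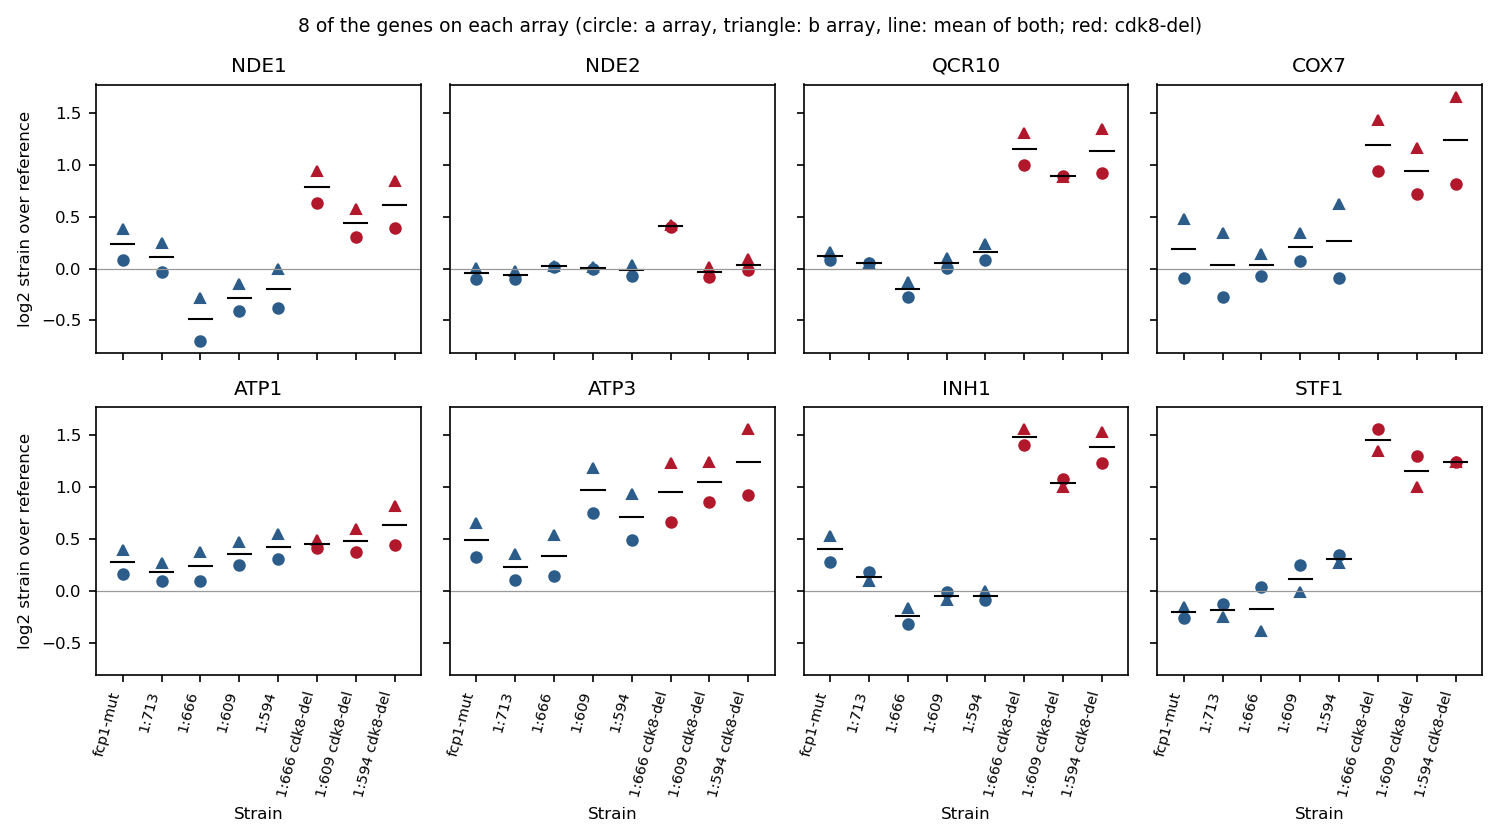
Log2 ratio of strain over reference on each array for NDE1, NDE2, QCR10, COX7, ATP1, ATP3, INH1 and STF1 in the 8 strains, with circles for a arrays, triangles for b arrays, a line for their mean and red for cdk8-del. The red points of QCR10, INH1 and STF1 stand clear of the blue ones, those of ATP1 overlap with them, and those of NDE2 are raised in 1:666 only.

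Without cdk8-del the genes had medians of 0.19 in fcp1-mut, 0.075 in 1:713, -0.035 in 1:666, 0.20 in 1:609 and 0.23 in 1:594 against the reference pool. The last 3 depended on the scaling. Taken relative to the median of all probes, they were -0.039, 0.19 and 0.22, and with each array centred on its median 0.035, 0.34 and 0.40, so that the direction turned in 1:666. In fcp1-mut, limma called 0 of 38 genes, against 0.235% of probes, and 2 rose and 0 fell by the looser rule, against 1.19% and 1.17%: ATP7 at 0.26 ± 0.042 (adjusted p = 0.00965), with 0.24 and 0.27 on its arrays, and INH1 at 0.41 ± 0.082 (adjusted p = 0.0288), with 0.28 and 0.53. At p under 0.05 before adjustment, 13 were higher and 0 lower, against 6.23% and 6.31% of probes, and with a replicate block 22 rose and 0 fell by the looser rule, against 9.08% and 9.58%. The highest and lowest were ATP3 at 0.49 and STF1 at -0.20. In 1:713, limma called 0 (0.172% of probes) and 0 rose or fell by the looser rule (0.564% and 0.626%), with 2 higher and 0 lower at p under 0.05 before adjustment (4.65% and 4.21%). The fit with a replicate block had 4 that rose and 0 that fell by the looser rule (4.92% and 4.92%), and the extremes were ATP2 at 0.34 and STF1 at -0.19.

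In 1:666, limma called 0 genes against the reference (0.626% of probes) and by the looser rule 0 rose and 1 fell (5.42% and 6.62%), TIM11 at -0.27 ± 0.071 (adjusted p = 0.0318). At p under 0.05 before adjustment, 1 was higher and 4 were lower (12.2% and 13.1% of probes). By the looser rule 3 rose and 9 fell with a replicate block, where 20.8% and 20.5% of probes did. The extremes were ATP3 at 0.34 and NDE1 at -0.49. In 1:609, 1 gene was called higher (0.72% of probes), ATP3 at 0.97 ± 0.20 (adjusted p = 0.00319) from arrays at 0.75 and 1.19, and without either of these arrays 0 were. The looser rule was passed by 13 genes higher and 0 lower (15.7% and 18.2% of probes), and with a replicate block by 22 higher and 3 lower (30.6% and 30.2%). Before adjustment, 17 were higher and 0 lower at p under 0.05 (20.3% and 21.9%). In 1:594, limma called 0 (2.25% of probes), and the looser rule was passed by 14 higher and 1 lower (15% and 15.5%), the last being QCR6 at -0.38 ± 0.10 (adjusted p = 0.0178). With a replicate block these were 23 higher and 3 lower (29.4% and 28.5%), and at p under 0.05 before adjustment 20 and 1 (20% and 19.8%). The highest was ATP3 at 0.71.

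Set against 1:713, the longest truncation, the shorter ones were compared without involving the pool. LYS2 and the alpha cell genes also differed between 1:713 and both 1:609 and 1:594. Their part in these comparisons cannot be told apart from that of the truncation. Relative to the median of all probes, the medians of the 38 genes were -0.11 in 1:666, 0.14 in 1:609 and 0.13 in 1:594, and -0.014, 0.29 and 0.31 with each array centred on its median. In 1:666, limma called 0 genes (0.047% of probes) and 0 rose or fell by the looser rule (0.188% and 0.564%), while 0 were higher and 7 lower at p under 0.05 before adjustment (4.12% and 5.37%). By the looser rule 0 rose and 6 fell with a replicate block (4.87% and 6.56%). The median was -0.10, between NDE1 at -0.59 and ATP15 at 0.23. In 1:609, limma called 0 (1.97% of probes), and 2 rose and 0 fell by the looser rule (7.25% and 10.2%), QCR2 at 0.41 ± 0.11 (adjusted p = 0.0249) and ATP7 at 0.36 ± 0.059 (adjusted p = 0.00245). In 1:713 itself QCR2 read 0.19 and 0.12 and ATP7 0.017 and 0.039, below both arrays of 1:609 and of 1:594. At p under 0.05 before adjustment there were 5 higher and 0 lower in 1:609 (13% and 16.2% of probes), and with a replicate block 13 rose and 2 fell by the looser rule (21.5% and 23.8%). In 1:594, limma called 0 (1.27% of probes), and 2 genes rose and 0 fell by the looser rule (5.76% and 6.56%), QCR2 at 0.46 ± 0.11 (adjusted p = 0.0205) and ATP7 at 0.25 ± 0.059 (adjusted p = 0.0212). At p under 0.05 before adjustment, 6 were higher and 1 lower (12.3% and 13.1%), and with a replicate block 14 rose and 2 fell by the looser rule (19.9% and 21.2%). The medians were 0.15 in 1:609 and 0.13 in 1:594, with NDE1 lowest and ATP3 highest in 1:609 (-0.39 and 0.74), and QCR6 lowest and ATP15 highest in 1:594 (-0.37 and 0.50).

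Against the reference, the cdk8-del strains stood out from the others. In 1:666 cdk8-del 21 genes were called higher (2.97% of probes) and 38 rose by the looser rule (16.7%), with a median of 0.82. In 1:609 cdk8-del 9 were called (1.83%) and 34 rose by the looser rule (16.9%), with a median of 0.64. In 1:594 cdk8-del 24 were called (2.55%) and 37 rose by the looser rule (18.2%), with a median of 0.87. Without the b array of 1:594 cdk8-del 10 were called in that strain, and without the b array of 1:666 cdk8-del 13 in the other. The 9 genes called in 1:609 cdk8-del were QCR2, QCR7, QCR8, QCR10, ATP3, ATP5, ATP7, INH1 and STF1. NDE2 was the lowest gene in each of the 3, at 0.41, -0.032 and 0.037. ATP3 was called in all 3, at 0.95, 1.05 and 1.24, although its change with cdk8-del passed in none without a replicate block. With the block all 38 genes, ATP3 among them, rose with cdk8-del in 1:666 by the looser rule, where 39.8% of probes passed in either direction. ATP3 was above the reference in the same truncations with CDK8 as well. Its a and b arrays differed by a median of 0.42 over the strains. These comparisons share the reference pool.

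Ordered by strain mean, 1:666 was the lowest strain for 28 of 38 genes, 1:713 for 8, fcp1-mut for 1 and 1:594 for 1. The highest strain was 1:594 cdk8-del for 21 genes and 1:666 cdk8-del for 17. In a moderated F test across the 8 strains, 26 of 38 genes had an adjusted p under 0.01, where 18.5% of probes did. The medians over the 38 genes for 1:594 cdk8-del and 1:666 cdk8-del lay closer together than those of either and 1:609 cdk8-del.

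Whether cdk8-del had unequal effects in the 3 truncations was tested on the difference itself. The change was smaller in 1:609 than in 1:666 for 38 of 38 genes, with a median difference of -0.43. By limma 0 genes were called (0.0157% of probes) and 0 passed the looser rule (0.172%), while 0 were higher and 19 lower at p under 0.05 before adjustment (2.29% and 4.6%), and the smallest adjusted p was 0.152. With a replicate block, 19 genes fell short of their change in 1:666 at an adjusted p under 0.05 and 0 exceeded it, where 4.76% and 1.85% of probes did. Among these were NDE1 at -0.55 ± 0.080 (adjusted p = 0.00304), NDE2 at -0.43 ± 0.066 (adjusted p = 0.00396), ATP17 at -0.62 ± 0.11 (adjusted p = 0.00819) and INH1 at -0.63 ± 0.13 (adjusted p = 0.0147), all by limma. They covered 3 of 3 NADH dehydrogenases, 3 of 4 complex II genes, 7 of 9 complex III genes, 1 of 7 complex IV genes, 3 of 13 subunit genes of the ATP synthase and 2 of 2 inhibitors.

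Between 1:594 and 1:666 the median difference was -0.18 and 34 of 38 were below 0. Limma called 0 (0.157% of probes) and 0 passed the looser rule (0.344%), with 0 higher and 5 lower at p under 0.05 before adjustment (2.69% and 5.42%). With a replicate block the looser rule was passed by 0 higher and 4 lower (2.33% and 5.15% of probes): NDI1 at -0.44 ± 0.11 (adjusted p = 0.0378), NDE1 at -0.46 ± 0.080 (adjusted p = 0.00638), NDE2 at -0.34 ± 0.066 (adjusted p = 0.0123) and STF1 at -0.69 ± 0.14 (adjusted p = 0.0144). All 3 NADH dehydrogenases therefore changed more in 1:666 than in either other truncation by this fit. Between 1:594 and 1:609 the median difference was 0.19, and limma called 0 (0.125% of probes) and 0 passed the looser rule (0.125%), with 5 higher and 0 lower at p under 0.05 before adjustment (1.5% and 3.07%). With a replicate block ATP17 at 0.55 ± 0.11 (adjusted p = 0.0381) and ATP20 at 0.51 ± 0.11 (adjusted p = 0.0403) were higher by the looser rule and 0 were lower, where 0.564% and 1.42% of probes were. The order of the genes was alike in the 3 truncations, which share the pool but no array. Spearman's rho across the 38 genes was 0.784 for 1:666 and 1:609, 0.734 for 1:666 and 1:594 and 0.752 for 1:609 and 1:594. Across the 38 genes Pearson's r between the changes was 0.873 for 1:666 and 1:609, 0.796 for 1:666 and 1:594 and 0.793 for 1:609 and 1:594, where all probes gave 0.836, 0.821 and 0.754. Genes are not independent replicates, and these values are given as a description.

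Other genes of the pathway were set beside the 38. Of 8 further nuclear genes with a probe (other isoforms of subunits, cytochrome c, and small associated proteins), 3 were called higher with cdk8-del on average (2.33% of probes), with a median of 0.64. CYC7, an isoform of cytochrome c that is minor in well-aerated cells, read -0.26 and -0.090 in 1:666, 0.045 and 0.13 in 1:609 and -0.039 and 0.060 in 1:594 with CDK8 and 2.09 and 2.08 in 1:666, 1.59 and 1.43 in 1:609 and 1.36 and 1.86 in 1:594 with cdk8-del. Its change of 1.76 ± 0.092 (adjusted p = 2.33e-07) exceeded that of any of the 38. STF2, known as a stabilising factor of the synthase with its inhibitors, lay below the reference on 6 of 6 arrays with CDK8, at -0.54 and -0.64 in 1:666, -0.80 and -0.76 in 1:609 and -0.64 and -0.46 in 1:594. With cdk8-del it read 1.72 and 1.86 in 1:666, 0.66 and 0.71 in 1:609 and 0.62 and 1.01 in 1:594, a change of 1.74 ± 0.084 (adjusted p = 1.30e-07), and it was called lower than the reference in 1:609 at -0.78 ± 0.10 (adjusted p = 0.000192). COX5B, the isoform of a complex IV subunit used at low oxygen, read -0.76 and -0.70 in 1:666, -0.65 and -0.40 in 1:609 and -0.55 and -0.40 in 1:594 with CDK8 and 0.46 and 0.64 in 1:666, 0.12 and 0.17 in 1:609 and 0.094 and 0.36 in 1:594 without it, a change of 0.88 ± 0.077 (adjusted p = 1.16e-05). The arrays of each truncation did not overlap for any of the 3 genes. COX5A, CYC1, ATP19, RCF1 and RCF2 were not called on average, and RCF2 had the smallest change at 0.076. In 1:666, COX5A went from -0.30 and -0.0050 to 0.24 and 0.82 with cdk8-del, and CYC1 from -0.35 and -0.53 to 0.092 and -0.15.

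The 7 subunits that mitochondria encode themselves did not follow. Limma called 0 of 7 on average, and 7 of 7 were below 0 in each truncation, with a median average change of -0.17. By the looser rule 3 fell and 0 rose on average, where 12.4% and 14.3% of probes did. Before adjustment, 4 were lower and 0 higher at p under 0.05, where 17.7% and 18.9% of probes were. ATP8, a subunit of Fo, had the largest change at -0.56 ± 0.20 (adjusted p = 0.0658), from -0.28 and 0.61 in 1:666, 0.63 and 0.52 in 1:609 and 0.57 and 0.63 in 1:594 with CDK8 to -0.36 and -0.41 in 1:666, 0.13 and -0.085 in 1:609 and 0.062 and -0.0014 in 1:594 with cdk8-del.

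HAP4, the subunit that gives the HAP complex its activating function, was the 1 of 5 HAP regulator genes called on average, at 0.94 ± 0.091 (adjusted p = 2.61e-05). It read -0.21 and 0.019 in 1:666, 0.52 and 0.74 in 1:609 and 0.42 and 0.67 in 1:594 with CDK8 and 1.02 and 1.30 in 1:666, 1.24 and 1.43 in 1:609 and 1.24 and 1.56 in 1:594 with cdk8-del. With CDK8, its arrays in 1:609 and 1:594 lay above both of 1:666. With cdk8-del this held within a letter, at 1.02 against 1.24 and 1.24 on a arrays and 1.30 against 1.43 and 1.56 on b arrays. It did not hold across letters. In 1:609 it was called higher than in 1:713 at 0.85 ± 0.16 (adjusted p = 0.00461). HAP1, which activates respiratory genes in response to haem, fell on average by 0.33 ± 0.064 (adjusted p = 0.00312). Of 30 assembly factors with a probe 1 was called on average, COX15, which makes haem A for complex IV, at 1.23 ± 0.14 (adjusted p = 9.89e-05), and 12 rose and 0 fell by the looser rule (14.3% and 12.4% of probes), with a median of 0.14. COX15 read -0.54 and -0.36 in 1:666, -0.39 and -0.070 in 1:609 and -0.36 and -0.059 in 1:594 with CDK8 and 0.92 and 1.44 in 1:666, 0.58 and 0.95 in 1:609 and 0.54 and 1.17 in 1:594 without it. COX17, which carries copper to complex IV, was called against the reference in 1:666 cdk8-del at 0.86 ± 0.14 (adjusted p = 0.000931). Of 10 ubiquinone synthesis genes limma called 0, while 5 rose and 1 fell by the looser rule (14.3% and 12.4% of probes) and 6 were higher and 2 lower at p under 0.05 before adjustment (18.9% and 17.7%), with a median of 0.17.

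Of 3 other enzymes that feed electrons to the chain, limma called 0 on average, 2 rose and 0 fell by the looser rule (14.3% and 12.4% of probes), and 2 were higher and 0 lower at p under 0.05 before adjustment (18.9% and 17.7%). GUT2, the mitochondrial glycerol 3-phosphate dehydrogenase, read 0.23 and 0.23 in 1:666, 0.68 and 0.68 in 1:609 and 0.78 and 0.88 in 1:594 with CDK8 and 1.06 and 1.12 in 1:666, 0.84 and 0.86 in 1:609 and 0.74 and 1.14 in 1:594 with cdk8-del. It was called with cdk8-del in 1:666, at 0.86 ± 0.11 (adjusted p = 0.00036), and against the reference in 1:594 and the 3 cdk8-del strains, at 0.83, 1.09, 0.85 and 0.94. CYB2, the lactate dehydrogenase that passes electrons to cytochrome c, was called in 1:666 at 0.85 ± 0.12 (adjusted p = 0.000659), from -0.70 and -0.71 to 0.066 and 0.23.

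**Figure D4:**
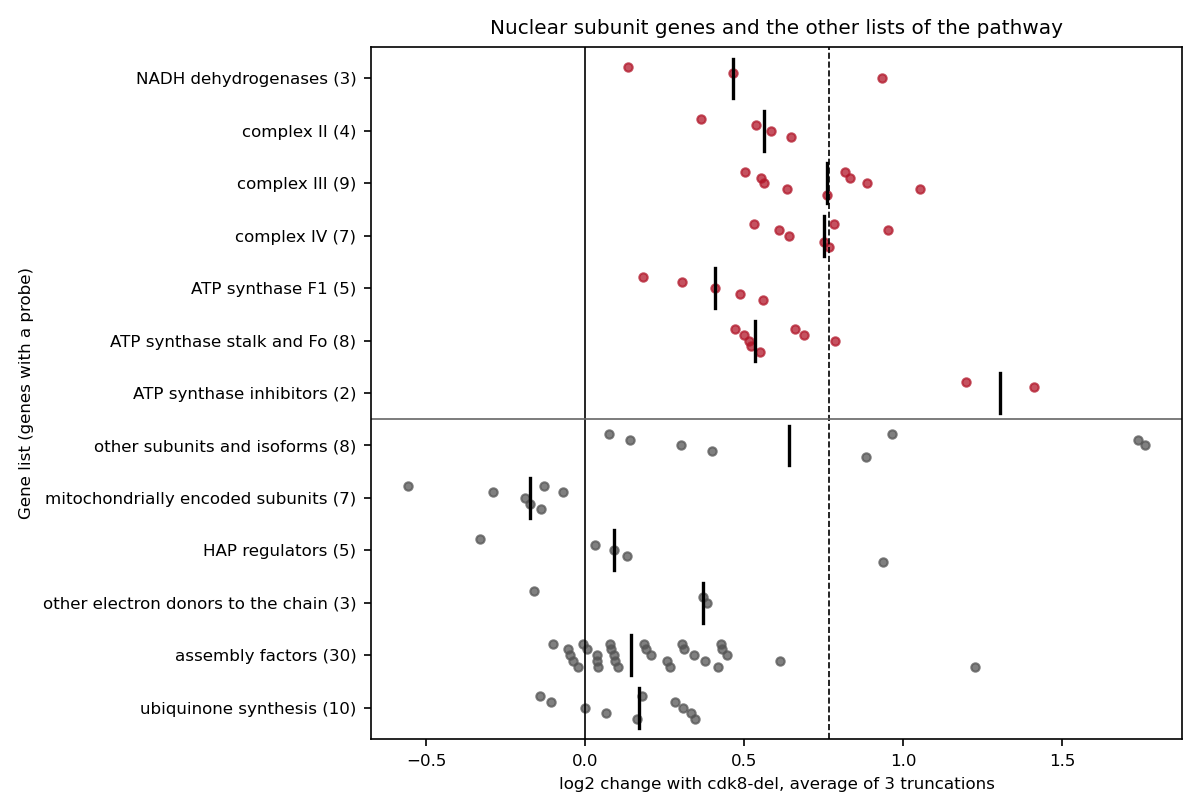
Average change in log2 ratio with cdk8-del over 3 truncations for each gene (points) and the median (bar) of the 7 groups of nuclear subunit genes in red and of 6 other lists of the pathway in grey, with the number of genes with a probe in brackets and a dashed line at 0.77. Red medians run from 0.41 for F1 to 1.31 for the inhibitors, and the mitochondrially encoded subunits lie below 0.

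Genes beside them on the chromosome were set against the 38. The 68 direct neighbours of the 38 genes with a probe were taken from the order of genes in the RefSeq table of assembly R64. Of these, 1 was called higher with cdk8-del in 1:666 (MRP8, at 0.78, named here after its value was seen). Limma called 0 in 1:609, in 1:594 and on average. Of all probes, 3.26%, 1.36%, 1.63% and 2.33% were called higher in 1:666, 1:609, 1:594 and on average. At p under 0.05 before adjustment, 10 and 5 neighbours were higher or lower in 1:666, where 920 and 731 of 6388 probes were. These counts were 11 and 6 in 1:609, 11 and 4 in 1:594 and 18 and 9 on average. The shares of all probes were 11% and 7.91% in 1:609, 11.2% and 10.2% in 1:594 and 18.9% and 17.7% on average. The neighbours' median change was 0.038, 0.051, 0.047 and 0.017 in the same order, against 0.80, 0.38, 0.61 and 0.60 for the 38 genes.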

How the data were processed

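RNA of 8 strains was hybridised against a reference pool on 16 two-colour arrays. Per the file headers, the deposited scanner files hold, per channel, the mean intensity of each spot and the median intensity around it, not normalised. The authors also deposited a matrix of log2 ratios, read here as strain over reference because each column correlated with the scanner ratios at 0.558 to 0.874. Its columns have medians of 0.0042 to 0.0286, and its background handling, scale and centring are not given in the sources used here. It was used as an alternative only.

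Each array has 15552 spots, of which 12776 are gene spots (6388 probes in 2 spots), 1872 external control spots and 904 other controls. GEO's platform annotation names 1 gene for 5326 probes and none for 1062. Of those symbols 58 were updated through the RefSeq table of assembly R64 and 2 had no match. Background was subtracted with normexp (offset 50). Lowess over the gene spots (span 0.4, 3 iterations) then scaled the log2 ratios of an array, which were set as strain over reference and averaged per probe. A probe was above background where its signal exceeded the local background by 3 of its standard deviations.

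All arrays entered 1 fit in limma 3.58.1 (R 4.3.3) with a coefficient for each strain (8 residual and 2.57 prior degrees of freedom). From it 18 two-sided contrasts and 1 F test were taken, with Benjamini-Hochberg adjustment over all gene probes within each contrast. The call limits are those of the design text, which does not say whether its p is adjusted. The letter of an array is its dye orientation. With strain means removed, a arrays of different strains correlated at 0.60 to 0.91 (median 0.81, 28 pairs), so the letters pair the arrays. The fit with the replicate letter as a block is given where it moves a count by over 1.5 times, and where it changes what is said of a gene.

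Each of the 38 genes is given with its values by array in the 6 strains compared for cdk8-del, and for fcp1-mut and 1:713 mostly by the span of their 4 arrays. Of the other lists, called genes are named, up to 4 per list and comparison. The 38 genes, the other lists and the tests were chosen with earlier results of these data known. The pipeline was tested on simulated data. Alternatives were plain or no background subtraction, median centring, print-tip lowess, external control scaling, the deposited log2 ratios, dim probes left out, a replicate block, an unadjusted p and leaving out each array. A promoter motif search and protein comparisons were not run, as no genome or sequence table was used here. Figures used Python 3.11.15, matplotlib 3.10.9, numpy 2.4.6 and pandas 2.3.3.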

Additional observations from a re-analysis of the deposited data

Results flagged for a closer look

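The effect of cdk8-del differed between truncations for some of the 38 genes by the test of the difference with the replicate letter as a block. By limma at an adjusted p under 0.05, 19 genes differed between 1:609 and 1:666, 4 between 1:594 and 1:666 (NDI1, NDE1, NDE2 and STF1) and 2 between 1:594 and 1:609 (ATP17 and ATP20). The same tests without the block passed for 0 genes, with 19, 5 and 5 at an unadjusted p under 0.05.

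MET17, which was read as a check of the strains, also differed. Its change with cdk8-del was lower in 1:609 than in 1:666 by a log2 difference of -4.17 ± 0.21 (adjusted p = 6.9e-06 in limma), and higher in 1:594 than in 1:609 by 3.83 ± 0.21 (adjusted p = 1.68e-05 in limma). The 4 arrays of 1:666 cdk8-del and 1:594 cdk8-del lay between -0.60 and 0.058, and the other 12 between -5.01 and -4.33. Whether the strains' difference in MET17 bears on the 38 genes was not tested.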

How the results depend on the processing

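Without counting the settings that leave out 1 array, 151 counts of called genes stayed within 1.5 times and 19 did not. A count that was 0 as reported and stayed 0 is among the 151. Median shifts of the 38 genes are their median minus that of all probes. Of these, 87 moved by less than the spread between arrays, 31 moved further and 2 reversed. The 87 include the fit with a replicate block, which leaves a shift unchanged by construction. The 31 and the 2 count median centring and external control scaling separately, although these give the same shifts by construction. Both reversals are the shift of 1:666 against the reference. With each array centred on its median in place of lowess, called genes were 0 in 1:609, 7 in 1:666 cdk8-del, 4 in 1:609 cdk8-del and 13 in 1:594 cdk8-del against the reference. With cdk8-del they were 3 in 1:666, 1 in 1:609, 0 in 1:594 and 3 on average, and 3 in the F test. Scaled on the external controls, all of these counts were 0 in limma, with 2, 0, 0 and 5 genes at an unadjusted p under 0.05 for cdk8-del in 1:666, 1:609, 1:594 and on average. The median SE of the 38 average changes was 0.081 as reported, 0.17 with median centring and 0.44 with external controls, which moved the median of all probes by 0.17 for the average and by -0.54 to -0.032 against the reference. With a replicate block 14 were called in 1:594 with cdk8-del, and no other count of called genes moved by over 1.5 times.

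Median centring and external control scaling differ by a constant per array, so the shifts below, taken relative to all probes, are the same in both by construction: against the reference 0.035 in 1:666 (reversed from -0.039), 0.34 in 1:609, 0.40 in 1:594 and 0.68 in 1:609 cdk8-del; against 1:713 -0.014 in 1:666, 0.29 in 1:609 and 0.31 in 1:594; with cdk8-del 0.75 in 1:666, 0.31 in 1:609, 0.53 in 1:594 and 0.52 on average. Plain background subtraction gave 0.25 in 1:594 and 0.68 in 1:609 cdk8-del against the reference, 0.16 in 1:609 against 1:713, and 0.86 in 1:666 and 0.64 on average with cdk8-del. Print-tip lowess gave 0.61 in 1:609 cdk8-del and 0.12 in 1:609 against 1:713. The deposited ratios gave 0.18 in 1:594 and 0.61 in 1:609 cdk8-del against the reference, 0.092 in 1:609 against 1:713 and 0.86 with cdk8-del in 1:666. The causes were not tested. In every scaling, 37 or 38 of the 38 genes were above 0 with cdk8-del in each truncation and 38 on average.

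Leaving out 1 array at a time gave 0 to 0 called genes in 1:609, 13 to 15 in 1:666 cdk8-del, 8 to 9 in 1:609 cdk8-del and 10 to 28 in 1:594 cdk8-del against the reference, 14 to 17, 1 to 2, 1 to 13 and 5 to 13 for cdk8-del in 1:666, 1:609, 1:594 and on average, and 22 to 30 in the F test. The shifts ranged over 0.11 to 0.26 in fcp1-mut, 0.048 to 0.091 in 1:713, -0.053 to -0.030 in 1:666, 0.20 to 0.26 in 1:609, 0.22 to 0.24 in 1:594, 0.73 to 0.87 in 1:666 cdk8-del, 0.65 to 0.66 in 1:609 cdk8-del and 0.73 to 1.03 in 1:594 cdk8-del against the reference. Against 1:713 they were -0.15 to -0.11 in 1:666, 0.10 to 0.15 in 1:609 and 0.094 to 0.16 in 1:594, and with cdk8-del 0.78 to 0.90 in 1:666, 0.39 to 0.43 in 1:609, 0.51 to 0.79 in 1:594 and 0.57 to 0.65 on average.

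The precision is limited by 2 arrays per strain, and an array left alone in its strain was assumed to vary like the others. All 38 genes were above background on every array, but NDE2, with a strain signal down to 87.3, moved from 0.14 to 0.24 with plain background subtraction.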
